A study of Mus musculus with 6 samples.

Results

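The genes described here are 41 mouse genes that carry a cell through mitosis, taken by gene name from a deposited table of 49548 genes. The list was written from gene function, but with earlier results of these data known. It holds the kinases and cyclins of the G2/M transition, the spindle checkpoint, spindle motors, kinetochore and chromosomal passenger proteins, cytokinesis regulators, and condensin and other chromosome proteins. Each name stood on 1 row of the table. Their mRNA was measured in synovial fibroblasts (SFs), the connective tissue cells of the joint lining, which were isolated from the ankles of mice on the CBA C57BL/6J background, aged 8 weeks, and grown in culture. All libraries came from mice with a human TNF transgene (hTNFtg), a model of inflammatory arthritis, so no library here is free of the transgene. The 3 untreated libraries were compared with 3 libraries of cells kept for 48 hours in 500 μM amisulpride, an antipsychotic drug that blocks dopamine receptors and the serotonin receptor HTR7, to learn how the drug changed the expression profile of arthritic SFs. The labels describe the controls as having had no treatment, whereas the methods speak of a vehicle. Neither source says whether cells of several mice were pooled.

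Mitosis is driven by CDK1 bound to cyclin B, helped by the Polo-like and Aurora kinases. The spindle assembly checkpoint restrains the anaphase-promoting complex (APC/C) until kinetochores are attached, after which the APC/C with CDC20 marks securin and the B cyclins for destruction, sister chromatids part, and the midzone and contractile ring divide the cell. Most of these mRNAs are low in resting cells and peak in G2 and mitosis, so in a culture such as SFs, which can divide when inflamed joints thicken, they are widely read as marks of dividing cells. In bulk libraries such as these, fewer dividing cells and less mRNA per dividing cell cannot be told apart.

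The promoters of genes of this class are known for CCAAT boxes, which the factor NF-Y binds, and for the cell cycle genes homology region (CHR), with the letters TTTGAA or TTTAAA, which the MuvB complexes bind near the transcript start. A RefSeq promoter window, from 250 bases before to 50 after the transcript start on the GRCm38.p6 build, matched 35 of the 41 genes and gave 37 windows, and Tpx2, Aurkb, Kif20a, Incenp, Smc4 and Ccna2 had none. Stretches of 200 bases, from 180 before to 20 after the start, are shown for Cdc20, Ube2c, Plk1 and Ncapd2, the called genes on which the results below rest most, and for Nuf2 and Pttg1, in whose whole windows none of the letters searched was found. Each reads 5′ to 3′ along the gene's own strand, and capitals mark whole matches, on either strand, to the CCAAT box, to the CHR letters above, or to the E2F-type letters TTTGGCGC and TTTCCCGC. On the opposite strand the box reads ATTGG and the first CHR form reads TTCAAA. The Cdc20 stretch lies at chr4:118437324-118437523 on the minus strand, that of Ube2c at chr2:164769749-164769948 on the plus strand, that of Plk1 at chr7:122159255-122159454 on the plus strand and that of Ncapd2 at chr6:125191567-125191766 on the minus strand. The Nuf2 stretch lies at chr1:169531445-169531644 and the Pttg1 stretch at chr11:43425962-43426161, both on the minus strand. Each runs from sequence before the RefSeq transcript start to 20 bases past it. For Pttg1 this start, with the whole window, lies inside the gene as deposited (chr11:43420250-43426251, minus strand). The same holds for the windows of Kif2c, Cdca8 and Kif4, which are counted below. Sequence before the outer starts of these genes was therefore not searched.
Cdc20: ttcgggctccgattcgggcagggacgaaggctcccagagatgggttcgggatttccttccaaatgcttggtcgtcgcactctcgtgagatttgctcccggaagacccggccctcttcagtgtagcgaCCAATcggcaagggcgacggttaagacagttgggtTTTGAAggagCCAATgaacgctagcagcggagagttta
Ube2c: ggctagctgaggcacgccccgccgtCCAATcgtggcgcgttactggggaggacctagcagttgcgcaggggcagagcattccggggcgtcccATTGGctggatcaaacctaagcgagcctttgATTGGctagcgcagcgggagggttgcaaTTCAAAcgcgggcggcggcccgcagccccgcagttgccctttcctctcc
Plk1: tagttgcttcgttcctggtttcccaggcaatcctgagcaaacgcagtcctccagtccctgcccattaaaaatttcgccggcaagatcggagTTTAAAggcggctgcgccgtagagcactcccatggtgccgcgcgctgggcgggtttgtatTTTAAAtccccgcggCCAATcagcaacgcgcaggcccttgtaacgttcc
Ncapd2: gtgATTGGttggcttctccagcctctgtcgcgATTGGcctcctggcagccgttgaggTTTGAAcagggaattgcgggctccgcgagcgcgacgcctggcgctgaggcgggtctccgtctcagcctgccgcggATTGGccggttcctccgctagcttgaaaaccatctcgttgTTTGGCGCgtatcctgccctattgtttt
Nuf2: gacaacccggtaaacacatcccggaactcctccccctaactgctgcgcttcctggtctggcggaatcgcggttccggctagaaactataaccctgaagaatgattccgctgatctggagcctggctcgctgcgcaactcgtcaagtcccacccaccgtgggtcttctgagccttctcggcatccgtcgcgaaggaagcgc
Pttg1: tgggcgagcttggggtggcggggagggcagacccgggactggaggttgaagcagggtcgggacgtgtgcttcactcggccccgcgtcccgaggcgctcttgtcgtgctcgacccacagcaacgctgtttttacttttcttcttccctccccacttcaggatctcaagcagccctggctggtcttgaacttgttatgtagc

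In the Cdc20 stretch a TTTGAA match beginning 18 bases before the start stood between CCAAT matches at 53 and 8 bases before it. The Ube2c stretch held a reversed TTTGAA at 29 bases before the start, with reversed CCAAT matches at 57 and 88. Plk1 carried the TTTAAA form at 29 and 89 bases before the start, beside a CCAAT match at 14. Ncapd2 was the only 1 of these 4 with an E2F-type match, TTTGGCGC at 8 bases before the start, and its TTTGAA match lay further off, at 123 bases. Of the pair without a match, Nuf2 fell after amisulpride at the study thresholds given below and Pttg1 did not pass them.

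Across the whole list, CCAAT was found in 29 of the 37 windows (78.4%), against 37.4% of all 32851 windows in the RefSeq table and 37.3% of the windows of the genes tested below. TTTGAA was found in 29 windows (78.4%), against 17.9% of all windows and 11.6% of those of tested genes, and TTTAAA in 9 (24.3%), against 13.2% and 9.18%. A window with CCAAT together with either CHR form was found in 75.7% of the list's windows and in 10.7% of all windows. By gene, 26 of the 35 had both, Bub1 had CCAAT alone, Anln, Birc5, Kif2c and Ndc80 had a CHR form alone, and Mad2l1, Nuf2, Nusap1 and Pttg1 had neither. The CHR matches lay close to the start: 75.7% of the windows had one between 60 bases before and 50 after it, a range chosen after the positions were seen, against 9.12% of all windows. In related lists of cell cycle genes CCAAT was in 63% of the windows of other mitotic genes, 59% of those of DNA replication genes and 55.6% of those of D cyclins, CDK inhibitors and p53. TTTGAA was in 49.3%, 12.8% and 18.5% of their windows. The E2F-type letters were in 5.41% of the list's windows and 1.56% of all windows, whereas among DNA replication genes they were in 28.2% of the 39 windows. CCAAT and TTTGAA can share 1 base, and the TTTGAA and TTTAAA forms cannot overlap. These are matches of letters in a reference genome, not measured binding.

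**Figure D1:**
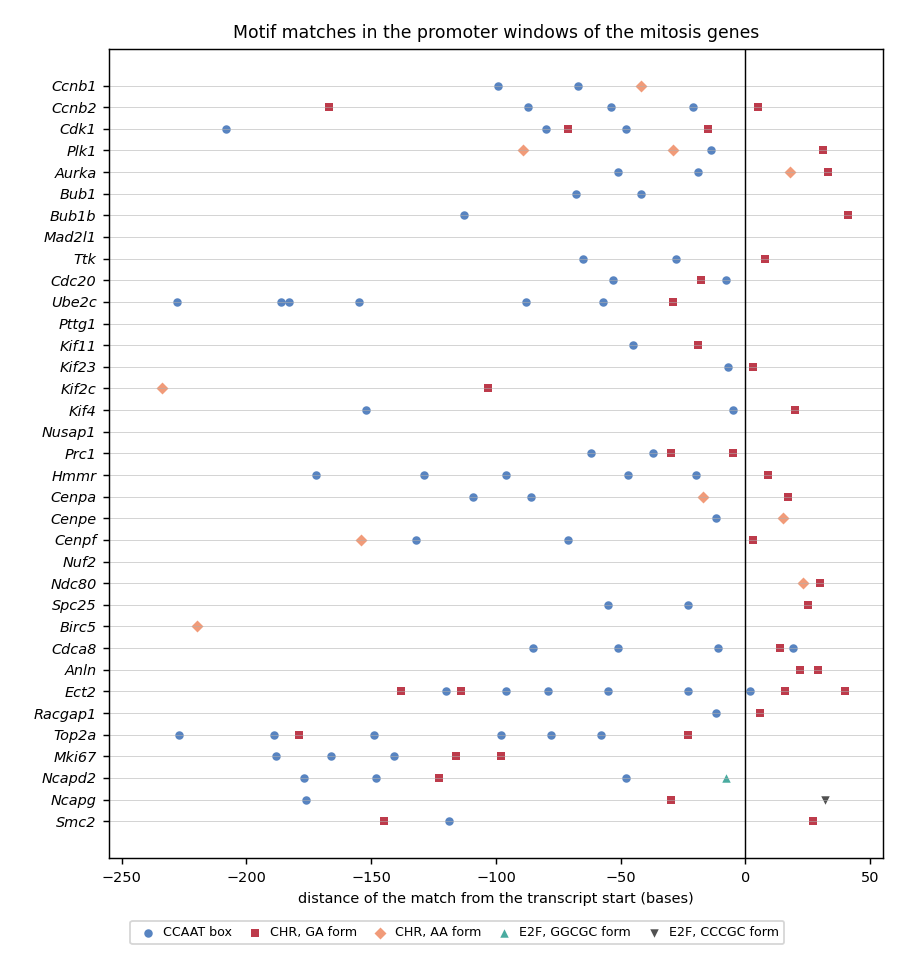
Positions of motif matches in the promoter windows of the 35 mitosis genes with a window. Each row is 1 gene, the x axis is the distance of the match from the transcript start in bases (250 before to 50 after), and symbols mark CCAAT, the TTTGAA and TTTAAA forms of the CHR, and the E2F-type letters. CHR symbols crowd around the start, CCAAT symbols mostly lie upstream of them, and the rows of Mad2l1, Pttg1, Nusap1 and Nuf2 are empty.

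The libraries were of the 3′ end kind (QuantSeq), and the deposited values are read counts scaled by the authors with a single factor for each library and then rounded, called normalised counts here. Depth was approximately 2.52 to 4.71 M reads per library, lowest in amisulpride replicates 3 (2.52 M) and 2 (2.94 M), and a floor of 3 reads came to 2.50 to 5.37 normalised counts. The SF label was borne out by most of 12 fibroblast markers, with Col1a1 at 10814 to 35599 and Pdpn at 1641 to 5891 normalised counts in every library. Fap was the lowest of them, at 7, 3 and 10 in untreated and 5, 19 and 29 in treated replicates 1 to 3. Prg4 was at 915, 859 and 733 against 426, 304 and 653 (limma adjusted p = 0.251). The lymphocyte genes Cd3e, Cd79a and Ms4a1 were at 0 throughout, and 8 endothelial markers summed to 2 to 17 with Cdh5 at 0. Myeloid transcripts were present although CD45+ cells had been depleted at passage 1. Their 12 markers, all above 0 in all 6 libraries, summed to 4248, 2442 and 2967 in untreated replicates 1 to 3 and to 4232, 2429 and 2318 in the treated ones, so the groups overlapped. Most of each sum was Lyz2, at 3046, 1733 and 2188 against 3287, 1879 and 1394. The mean log2(normalised count + 1) of the 12, on which Lyz2 weighs less, was 6.98, 6.07 and 6.15 against 6.6, 5.75 and 6.17, also with overlap. Within that list Ptprc, the gene of CD45, was at 38, 12 and 18 against 23, 5 and 5, and Cd14 at 121, 69 and 76 against 47, 25 and 13 (limma adjusted p = 0.144, adjusted p = 0.012 with the replicate number as a block). Other members of the list had higher treated means, among them Adgre1 at 39, 25 and 14 against 59, 43 and 32 and C1qb at 44, 35 and 38 against 53, 50 and 109. The part of these cells in the results was not tested.

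As a group the mitosis genes were lower after amisulpride. Their normalised counts summed to 2907, 2311 and 2331 in untreated replicates 1 to 3 and to 1647, 1419 and 1864 in amisulpride replicates 1 to 3. The groups did not overlap, and the mean of the sums was 34.7% lower, at 1643 ± 223 against 2516 ± 338 (SD, n = 3 each). The mean of 36 of the 41 genes was lower in treated cells, against 6047 of the 12614 genes of the whole table that passed the filter given next. Of the 41, 32 passed the filter on low values, 10 or more normalised counts in 3 or more of the 6 libraries, and could be tested. Among these, 27 had a log2 fold change below 0, which held for 49.9% of the 12614 genes tested in all, and the median was -0.71 (quartiles -1.0 and -0.42), against 0 for all genes tested.

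Each gene was compared with limma on log2(normalised count + 1), a scale that understates the change of low genes. The thresholds of the study were a log2 fold change of 1 or more in either direction and an unadjusted p-value below 0.05. At these, 7 of the 32 tested genes fell (21.9%), against 3.01% of all genes tested, and 0 rose, against 2.69% of all genes. The 7 were Plk1, Cdc20, Ube2c, Nuf2, Racgap1, Mki67 and Ncapd2. An unadjusted p-value under 0.05 by limma was reached by 13 of the 32 in the lower direction (5.77% of all genes) and by 0 in the higher direction (5.11% of all genes). After Benjamini-Hochberg adjustment over all 12614 genes, 0 of the 32 passed 0.05 by limma, as against 0.19% of all genes in the lower and 0.0951% in the higher direction. Same-numbered libraries varied together, although neither the labels nor the methods state a pairing. With the replicate number as a block in limma 2 of the 32 passed, Cdc20 and Ube2c, both lower, against 1.05% of all genes in the lower and 1.03% in the higher direction. For 11 of the 32 (34.4%), all 3 treated values lay below all 3 untreated values, against 8.66% of all genes, and for 0 all lay above, against 7.8% of all genes. These shares are a description, since the list was chosen with earlier results of these data known.

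**Figure D2:**
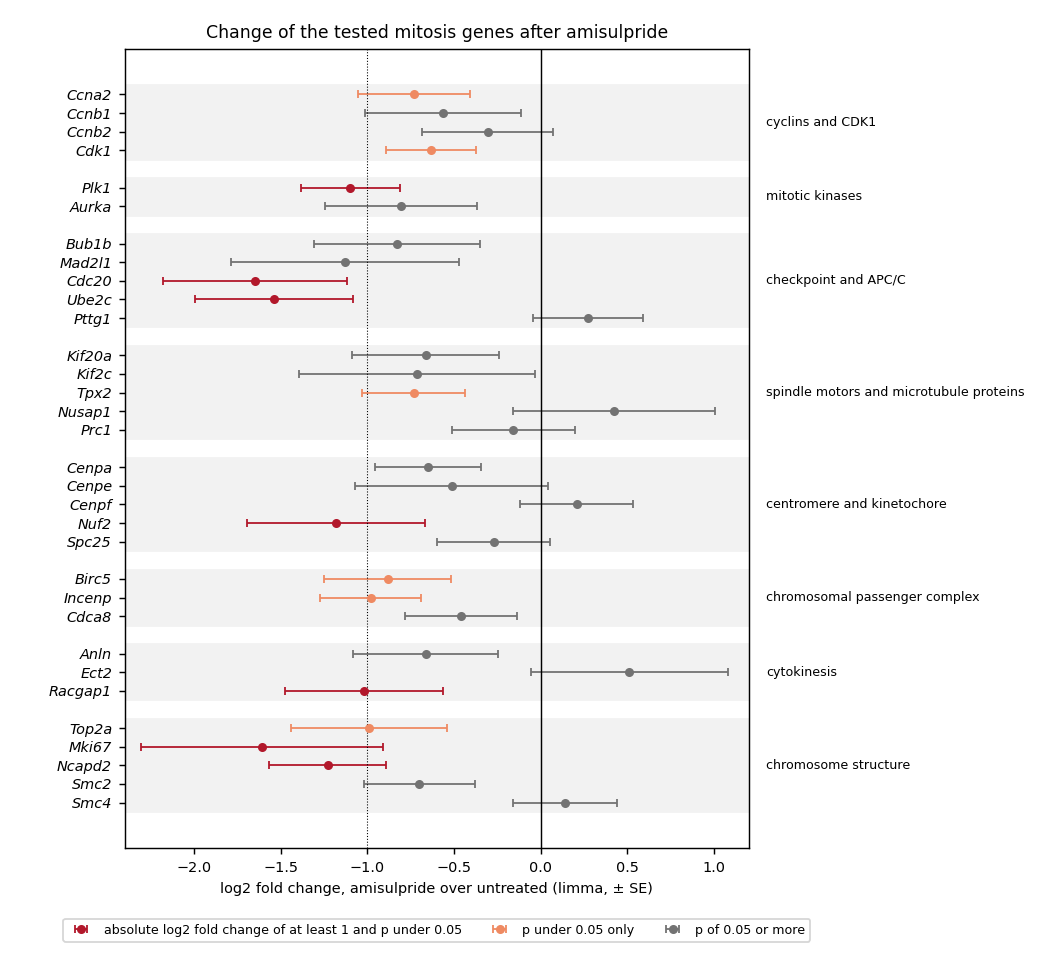
Log2 fold change of the 32 tested mitosis genes, amisulpride over untreated, from limma on log2(normalised count + 1), with bars for the SE and genes grouped by role. The 7 genes past the study thresholds are dark red, and 27 of the 32 points lie left of the line at 0.

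Of the 7, 2 passed the filter mainly on their untreated values, since Nuf2 and Mki67 reached 10 in 3 untreated libraries and in 1 treated library. A filter that ignores the groups, a mean of at least 20 over the 6 libraries, left 25 of the genes. Of these, 22 were lower, against 5427 of the 10860 genes that passed both filters. The median of the 25 was -0.70 and 5 fell at the study thresholds, against 271 of all 10863 genes. With no filter all 41 were fitted, of which 36 were lower, and the matching share of all genes was not taken. In that fit 8 fell at the study thresholds, with Bub1 and Kif11 in and Nuf2 out, against 692 of all 22775 genes. The number past the study thresholds also rested on single libraries: it was 13 without amisulpride replicate 3 and 4 without amisulpride replicate 2. Over all genes, 411 of 12382 and 388 of 12335 fell in those fits.

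In the group of the checkpoint and the APC/C, 2 of the 5 tested genes fell. CDC20, the activator of the APC/C and the protein that the checkpoint holds in check, had normalised counts of 148, 112 and 123 for its gene (chr4:118432901-118437352, mm10, minus strand) in untreated replicates 1 to 3 and of 48, 91 and 14 in amisulpride replicates 1 to 3. Every treated value was below every untreated one, but the treated values ran over a wide range, and the 14 in replicate 3 came from approximately 8 reads. The log2 fold change was -1.65 ± 0.53 (SE, limma adjusted p = 0.253, adjusted p = 0.0403 with the replicate block), and without amisulpride replicate 3 it was -0.93. UBE2C, the ubiquitin-conjugating enzyme that works with the APC/C, followed the same order: its gene (chr2:164769898-164778822, mm10, plus strand) stood at 172, 80 and 59 in untreated and at 36, 48 and 18 in treated replicates. The lowest untreated value, 59, exceeded the highest treated value, 48, and the log2 fold change was -1.54 ± 0.46 (SE, limma adjusted p = 0.213, adjusted p = 0.026 with the replicate block). Leaving out any 1 library kept it between -1.86 and -1.10 and past the study thresholds.

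Securin, the inhibitor of separase and a substrate of the same APC/C, did not follow. Its gene Pttg1, the most abundant of this group, was at 316, 258 and 136 in untreated and 262, 241 and 310 in treated libraries, and the groups overlapped. The log2 fold change was 0.27 ± 0.32 (SE, limma adjusted p = 0.796), and it turned to -0.08 without untreated replicate 3. The kinase BUBR1, encoded by Bub1b, and MAD2, encoded by Mad2l1, belong to the checkpoint complex that sequesters CDC20. Bub1b was at 24, 16 and 38 against 9, 13 and 20 (log2 fold change -0.83 ± 0.48 SE), and Mad2l1 at 16, 15 and 23 against 15, 12 and 2 (-1.13 ± 0.66 SE), and neither passed. The Mad2l1 value rested on amisulpride replicate 3, without which it was -0.37. The checkpoint kinase genes Bub1 and Ttk were too low to test: Bub1 was at 18, 3 and 3 against 1, 0 and 0, and no library had Ttk above 3.

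Polo-like kinase 1, which acts from mitotic entry to cytokinesis, gave the lowest p-value of the list in the fit without the replicate block, with which Ube2c and Cdc20 were lower. Plk1 (chr7:122159439-122169873, mm10, plus strand) stood at 86, 118 and 129 normalised counts in untreated and at 54, 44 and 54 in treated replicates. Treated values were close to each other and all under the lowest untreated value, and the log2 fold change was -1.10 ± 0.28 (SE, limma adjusted p = 0.151). It fell short of the study thresholds without untreated replicate 3, at -0.98. Aurora A, encoded by Aurka, is the kinase of the spindle poles. Aurka was at 101, 65 and 33 against 30, 25 and 52, and the overlap came from untreated replicate 3 and amisulpride replicate 3 (log2 fold change -0.81 ± 0.44 SE, limma adjusted p = 0.542).

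All 4 genes of CDK1 and its cyclins were lower in the mean, with log2 fold changes of -0.73 to -0.31, and none reached the study thresholds. Cdk1, the most abundant of them, was at 141, 140 and 146 in untreated and 110, 90 and 77 in treated libraries. The untreated values agreed closely and none of the treated ones reached them (log2 fold change -0.63 ± 0.26 SE, limma adjusted p = 0.393). Ccna2, the gene of cyclin A2, was at 68, 60 and 45 against 35, 27 and 41 (-0.73 ± 0.33 SE, limma adjusted p = 0.449). The B cyclins, the partners of CDK1 in mitosis, were less uniform: Ccnb1 was at 46, 36 and 38 against 16, 21 and 55, and Ccnb2 at 39, 38 and 47 against 21, 33 and 52. In both, amisulpride replicate 3 was the highest library of all 6, and without it Ccnb1 passed the study thresholds at -1.08.

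The chromosomal passenger complex corrects faulty kinetochore attachments and later directs cytokinesis. Its scaffold gene Incenp was at 206, 174 and 201 in untreated and at 118, 66 and 118 in treated libraries. The groups were well apart, and the log2 fold change of -0.98 ± 0.29 (SE, limma adjusted p = 0.213) lay just short of the study thresholds. Birc5, which encodes survivin and had the highest mean of all 41 genes, was at 513, 268 and 233 against 120, 158 and 267 (-0.88 ± 0.37 SE, limma adjusted p = 0.406). Amisulpride replicate 3 was again the library that overlapped the controls. Cdca8, the gene of borealin, was at 100, 95 and 157 against 82, 60 and 115 (-0.46 ± 0.32 SE). The kinase gene of the complex, Aurkb, was at 38, 23 and 3 against 7, 5 and 7 and could not be tested.

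Among chromosome structure genes, the condensin I subunit Ncapd2 (chr6:125168007-125191701, mm10, minus strand) fell. Its values were 81, 63 and 52 in untreated and 33, 20 and 29 in treated libraries. No treated library reached the untreated range, the log2 fold change was -1.23 ± 0.34 (SE, limma adjusted p = 0.182), and it stayed past the study thresholds in each of the 15 other settings tried. Other condensin genes gave the following values. Smc2, an ATPase shared by condensins I and II, was at 46, 40 and 61 against 30, 28 and 30 (-0.70 ± 0.32 SE, limma adjusted p = 0.463). Smc4, its ATPase partner, was at 66, 62 and 86 against 102, 76 and 61, and its log2 fold change of 0.14 ± 0.30 (SE) turned to -0.05 without amisulpride replicate 1. Ncapg, another condensin I subunit, had 7, 5 and 13 against 4, 4 and 0 and was not tested.

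Mki67, which encodes the proliferation marker Ki-67, a coat of mitotic chromosomes, was at 28, 24 and 11 in untreated and 3, 3 and 18 in treated libraries. Amisulpride replicates 1 and 2 were far below the controls and replicate 3 was inside their range, with a log2 fold change of -1.61 ± 0.70 (SE, limma adjusted p = 0.429). The call was lost in 4 of the 6 fits that left out 1 library. Top2a, the gene of the topoisomerase that untangles sister chromatids, was at 78, 89 and 66 against 68, 17 and 48, and only amisulpride replicates 2 and 3 lay below all controls (-0.99 ± 0.45 SE, limma adjusted p = 0.456).

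Of the kinetochore genes, Nuf2, a subunit of the NDC80 complex that grips microtubules, was at 18, 22 and 18 against 7, 5 and 14. All treated values were lower, with a log2 fold change of -1.18 ± 0.51 (SE, limma adjusted p = 0.434). The call held in 1 of the 6 fits that left out 1 library. Cenpa, the centromeric histone H3 variant and the highest of this group, was at 70, 57 and 72 against 47, 32 and 48, without overlap, but its log2 fold change of -0.65 ± 0.31 (SE, limma adjusted p = 0.477) did not pass. Spc25, also of the NDC80 complex, and Cenpe, a kinetochore motor, had log2 fold changes of -0.27 and -0.51. Cenpf, a large kinetochore protein of G2 cells, was at 32, 56 and 55 against 49, 60 and 52, with overlap. Ndc80 itself had 9, 2 and 2 against 4, 3 and 2, values near the floor of 3 reads.

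Spindle motors and microtubule proteins held none of the called genes. Tpx2, the spindle factor that activates Aurora A and the highest of this group, was at 132, 119 and 137 against 106, 79 and 55, with no overlap (-0.73 ± 0.30 SE, limma adjusted p = 0.389). Kif20a, a cytokinesis kinesin, was at 38, 53 and 48 against 32, 15 and 48, and Kif2c, a microtubule-depolymerising kinesin, at 17, 8 and 23 against 9, 3 and 21. Prc1, which bundles the midzone, was nearly level, at 42, 34 and 52 against 30, 32 and 55 (-0.16 ± 0.35 SE). Nusap1, a microtubule-binding protein, was at 21, 8 and 5 against 16, 13 and 11, all low. The motors Kif11, Kif23 and Kif4 and the microtubule-binding Hmmr were not tested, with no library above 14 normalised counts, and Kif11 had 14, 7 and 8 against 1, 0 and 7.

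In cytokinesis, Racgap1, the GTPase-activating subunit of centralspindlin, fell. It was at 42, 62 and 72 in untreated and 16, 23 and 57 in treated libraries, with amisulpride replicate 3 inside the untreated range. The log2 fold change was -1.02 ± 0.45 (SE, limma adjusted p = 0.449), and the call held in 2 of the 6 fits that left out 1 library. Ect2, the RhoA exchange factor that RACGAP1 recruits, was at 8, 9 and 14 against 30, 8 and 13, a positive log2 fold change (0.51 ± 0.57 SE) that came from amisulpride replicate 1. Anln, the gene of the contractile ring protein anillin, was at 28, 23 and 40 against 22, 12 and 23 (-0.66 ± 0.42 SE).

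**Figure D3:**
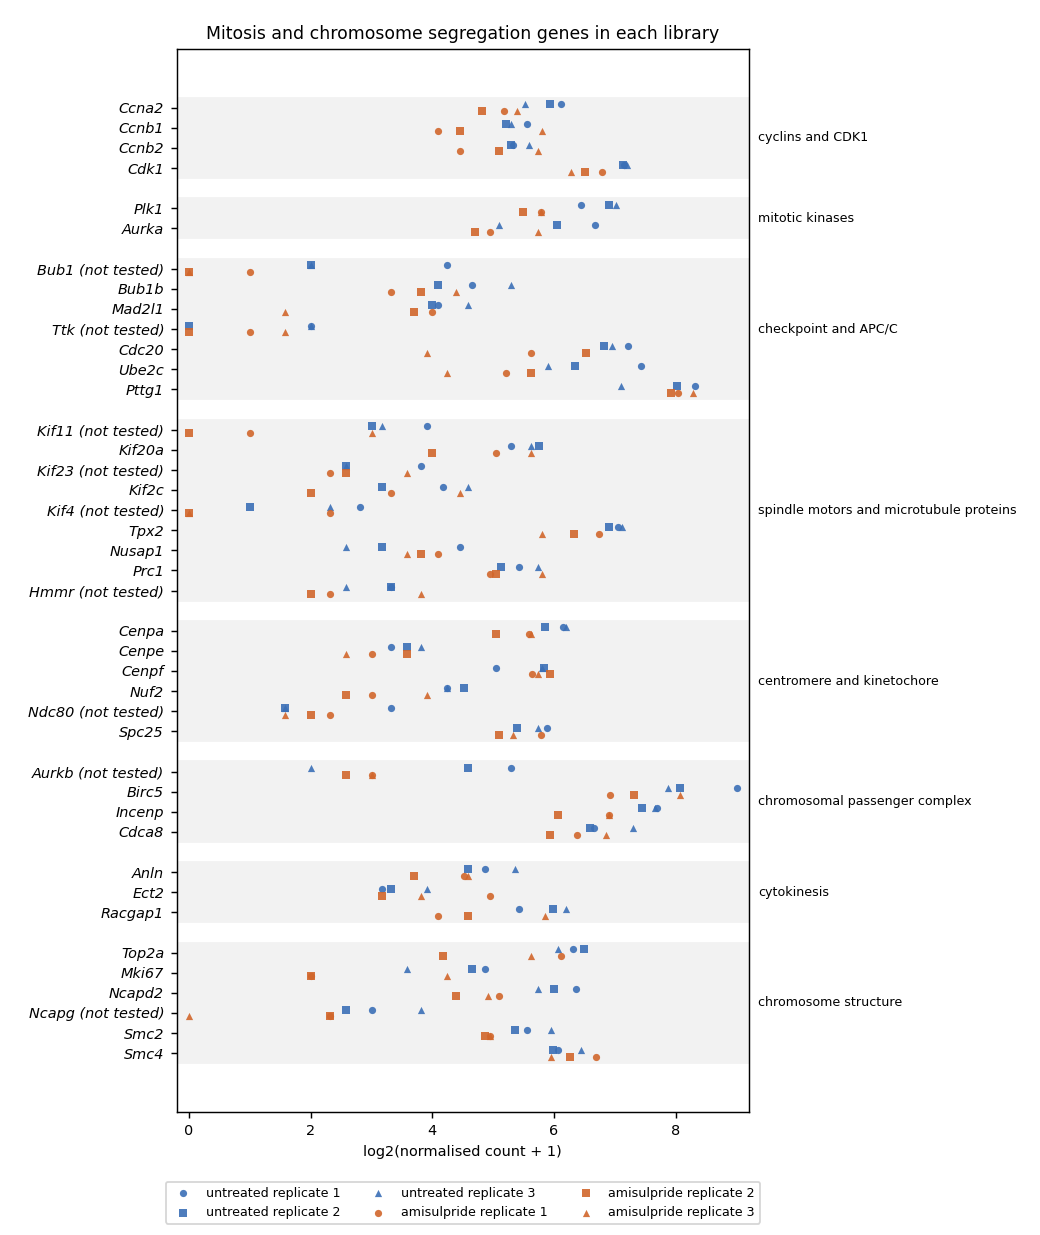
Level of all 41 mitosis genes in each of the 6 libraries, as log2(normalised count + 1), with genes in rows grouped by role. Blue symbols are untreated and orange symbols amisulpride libraries, and the symbol's shape gives the replicate number. Orange symbols lie left of blue ones for Plk1, Cdc20, Ube2c, Incenp and Ncapd2, while for Ccnb1, Ccnb2, Aurka and Birc5 the orange triangle of replicate 3 lies among or beyond the blue symbols.

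The treated libraries did not lower the list evenly. Of the 32 tested genes, 23 in amisulpride replicate 1, 26 in replicate 2 and 16 in replicate 3 were below all 3 untreated values. The matching shares of all tested genes were not taken, so these counts and the ranks that follow describe the listed genes only. Amisulpride replicate 3 was the highest treated library for 16 genes and the lowest for 8, the latter including Cdc20, Ube2c, Mad2l1, Cdk1 and Tpx2, while replicate 2 was the lowest for 16. Within replicate numbers, which the labels give to both groups, the treated library had the lower value for 29, 28 and 23 of the 32 genes in pairs 1, 2 and 3, and for 49.2%, 50.1% and 49.7% of all tested genes. A total of 19 of the 32 (59.4%) were lower in all 3 pairs, against 17.8% of all tested genes. The genes varied only weakly together within groups: over the 6 libraries the mean pairwise correlation of their deviations from the group means was 0.0778, against 0.000426 for all tested genes, given as a description.

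The spread between libraries was larger than counting error gives. From the approximate reads, counting alone would give the log2 fold changes of the tested genes a median SE of 0.202, whereas the SE by limma had a median of 0.398, a median of 1.82 times the counting SE over genes, with a range of 1.31 to 4.25. Neighbouring genes and copies set a limit for some members, since the authors' counting is not stated to use strand. The last bases of Cdc20 overlap the opposite-strand gene Elovl1, at 394, 271 and 245 against 275, 234 and 138 normalised counts, those of Ccna2 overlap Exosc9, at 345, 273 and 252 against 263, 190 and 632, and those of Kif20a overlap Cdc23. In the last 500 bases of the transcripts, 40.2% of the 31-base words of Ccnb1 and 22.6% of those of Cdc20 also occurred in another gene, mostly the copies Ccnb1-ps and Gm7856. For the other called genes this share was 11.8% for Plk1, all of it in the copy Plk-ps1, 11% for Mki67 and 10.9% for Ube2c. It was 2.79% for Nuf2, 1.68% for Racgap1 and 0 for Ncapd2. The end of Ube2c also overlaps the opposite-strand gene Tnnc2, at 3, 0 and 2 against 0, 0 and 4. Reads of genes with such overlaps or copies could be split or shared. The Cdc20, Ccna2, Ccnb1, Plk1, Mki67 and Ube2c values are uncertain to that extent.

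Other lists of cell cycle genes had medians closer to 0. Of 82 other mitotic genes, 56 were tested, 46 of them had a log2 fold change below 0, and the median was -0.45. At the study thresholds 7 fell (12.5%), against 3.01% of all genes tested. That count of 7 was 4, 3 and 2 without untreated replicates 1, 2 and 3 and 11 without amisulpride replicate 3. Over all genes, 254 of 12328, 323 of 12338, 291 of 12392 and 411 of 12382 fell in those fits. Kif22, a chromokinesin that pushes chromosome arms, had the lowest p-value of them, at 73, 75 and 47 against 27, 20 and 11 (-1.75 ± 0.40 SE, limma adjusted p = 0.0982, adjusted p = 0.0143 with the replicate block). Foxm1, the transcription factor that binds MuvB at G2/M promoters, was at 36, 25 and 35 against 15, 9 and 14 (-1.28 ± 0.41 SE, limma adjusted p = 0.251). Ska1, a kinetochore subunit, was at 30, 20 and 15 against 5, 1 and 9 (-2.15 ± 0.67 SE). Nek2, a centrosome kinase, was at 17, 20 and 12 against 4, 5 and 5 (-1.59 ± 0.54 SE). Both passed the filter on low values only through their untreated libraries, which favours a fall. With the filter on the mean, 3 genes of this list fell at the study thresholds. Ncaph2, the kleisin of condensin II, went the other way, at 63, 63 and 69 against 143, 131 and 86 (0.84 ± 0.29 SE, limma adjusted p = 0.281), without reaching the study thresholds.

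Of 42 DNA replication genes, which are expressed from late G1 to S phase, 34 were tested. Of these, 26 had a log2 fold change below 0 and the median was -0.41. At the study thresholds 3 fell (8.82%), against 3.01% of all genes tested. Fen1, the flap nuclease of Okazaki fragment maturation, was at 84, 65 and 42 against 25, 24 and 32 (-1.16 ± 0.35 SE, limma adjusted p = 0.224). Ccne1, the gene of cyclin E1, was at 124, 136 and 123 against 82, 71 and 57 (-0.87 ± 0.27 SE). The 3 calls rested on untreated replicate 1, without which there were 0. The 26 genes of D cyclins, CDK inhibitors and p53 signalling, which govern entry into the cycle, had a median of -0.01 over 22 tested genes. Of these, 1 fell at the study thresholds (4.55%), a share near the 3.01% of all genes tested. It was Cdkn2c, an inhibitor of CDK4 and CDK6, at 23, 32 and 36 against 17, 7 and 7 (-1.56 ± 0.48 SE). Gadd45a, a growth arrest and DNA damage gene, was at 105, 88 and 139 in untreated and 197, 218 and 236 in treated libraries (0.99 ± 0.26 SE, limma adjusted p = 0.167), just short of the study thresholds. Whether the lists differed from each other in their change was not tested.

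**Figure D4:**
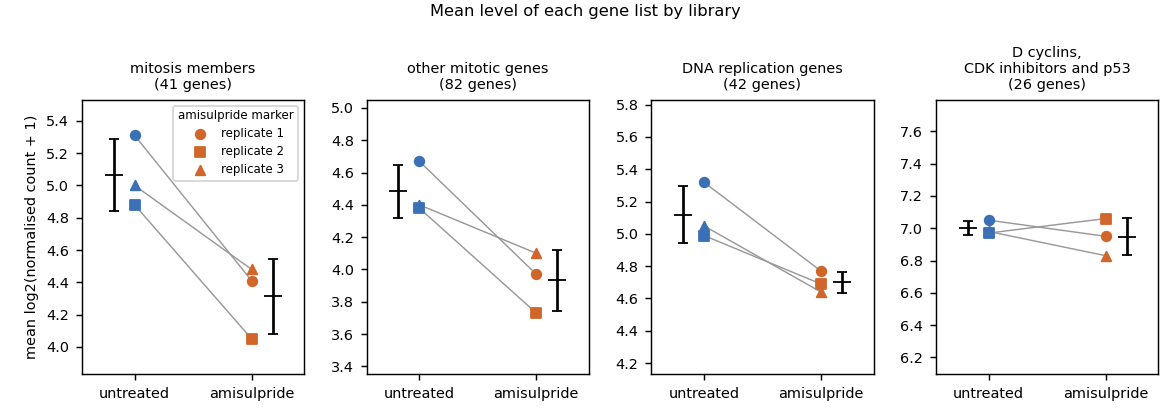
Mean log2(normalised count + 1) of each gene list in each library, untreated (blue) and amisulpride (orange), all listed genes included. Lines join libraries with the same replicate number, black bars give the mean ± SD over 3 libraries, and the 4 panels span equal ranges. The mitosis genes went from 5.31, 4.88 and 5.0 to 4.41, 4.05 and 4.48, a difference of the means of -0.75, and the D cyclin panel shows -0.05.

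**Figure D5:**
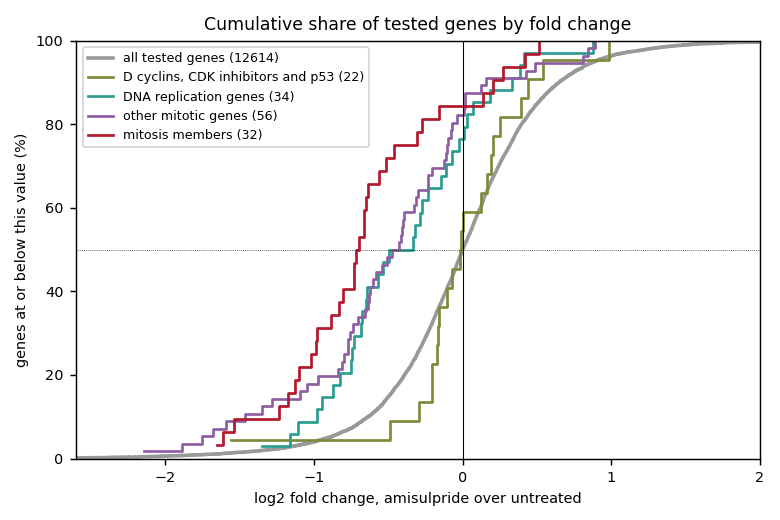
Cumulative share of tested genes (y axis, %) at or below each log2 fold change (x axis, amisulpride over untreated) for the 32 mitosis genes, 56 other mitotic genes, 34 DNA replication genes, 22 genes of D cyclins, CDK inhibitors and p53, and all 12614 tested genes. The mitosis curve crosses 50% at -0.71 and the curve of all genes at 0.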

How the data were processed

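The authors mapped the Ion Proton reads to mm10 with TopHat2 and, for reads left over, Bowtie2, counted reads per gene with GenomicRanges, removed genes without reads and normalised the counts through DESeq in metaseqr. The deposited values used here are a score, namely counts scaled by the authors with a single factor for each library and rounded. The deposited fold changes and p-values of the authors' own comparison, and 12 further columns of values per library, were not used. Depth was estimated from the spacing of low values, and for untreated replicate 1 it is uncertain. The floors and the counting SE cover counting error only, whereas the SE by limma and the SD come from the spread between libraries.

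Genes were fitted together by limma 3.58.1 (R 4.3.3), using log2(value + 1), a variance trend and two-sided tests, and Benjamini-Hochberg adjustment covered all 12614 genes. With 3 against 3 libraries an exact permutation test cannot go below 0.1, so none was used. The fit was also run on simulated counts with a single spread for all genes and no pairing of libraries, unlike these data, so no conclusion is drawn from that run. The methods call the libraries biological replicates. Same-numbered libraries deviated together (correlations of 0.229, 0.240 and 0.201, other pairs -0.149 to -0.0777), so the numbers were taken as pairs for the block fit. Neither the labels nor the methods say that same-numbered libraries share mice or a batch, so this pairing was read from the same data. Members and lists were chosen with earlier results of these data known. By rule, values per library were to be given for called members and the highest of each role, and at most 5 genes with the lowest p-values of each other list named. Values of further members were added after they were seen.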

Additional observations from a re-analysis of the deposited data

How the results depend on the processing

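The median log2 fold change of the mitosis genes stayed between -0.84 and -0.57 in every setting tried, and between 25 and 41 of them were fitted. The number past the study thresholds was 4 to 13 when 1 library was left out, and 0 members passed an adjusted p of 0.05 in limma except for 1 (Plk1) with library weights and 2 with the replicate block. Over all genes, 36 passed an adjusted p of 0.05, against 57 with a pseudocount of 5, 57 with no filter, 66 with quantile normalisation, 195 with library weights, 263 with the replicate block and 0 to 120 without 1 library. With no filter 621 genes rose and 692 fell at the study thresholds, and 254 to 515 fell when 1 library was left out. Ube2c and Ncapd2 passed the study thresholds in every setting. Of 464 single-gene values under another setting, 420 kept their direction and side of the threshold, 20 gained and 20 lost it, and 4 changed sign: Ccnb2 (0.01) and Smc4 (-0.05) without amisulpride replicate 1, Cenpf (-0.05) without untreated replicate 1 and Pttg1 (-0.08) without untreated replicate 3. Leaving out 1 library gave Ccnb2 -0.62 to 0.01, Cenpf -0.05 to 0.34, Pttg1 -0.08 to 0.52 and Smc4 -0.05 to 0.31. Of the other mitotic genes 3 fell with the mean filter and 2 to 11 without 1 library. The DNA replication median was -0.52 with the mean filter and -0.56 to -0.29 without 1 library, and its calls numbered 0 to 4. The replicate block changed the adjusted call of no other member. Depth limits the 9 untested genes, and the causes of these shifts were not tested.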
